A study of Homo sapiens with 480 samples.

Results

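The cells described here were human fibroblasts on day 8 of reprogramming, divided by whether they held transcripts of GDF3. Of 96 cells captured on that day, 92 had at least 2000 genes at a value of 1 or more and were kept, and 4 were left out. The value is FPKM (fragments scaled for transcript length and library total) rescaled so that each cell sums to 1000000, and a gene was detected in a cell at 1 or more. On this scale 27 of the 92 cells had GDF3 at 1 or more and 65 had it under 1; these are called cells with GDF3 and cells without it. GDF3 itself made the division, so its values describe the 2 sides and support nothing else. The last cell outside the threshold stood at 0.818 and the first inside it at 1.04. The other 64 cells without GDF3 were listed at 0.

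The series holds 480 single-cell libraries of polyadenylated RNA in 5 groups of 96. They are BJ cells, an established fibroblast line from neonatal human skin, without reprogramming factors; the same line at 2 and 8 days of induced expression of the 4 reprogramming factors (OCT4, SOX2, KLF4, MYC) from viruses; and day-16 cells sorted as positive or negative for TRA-1-60, a surface epitope of pluripotent cells. Every group except the first carries the 4 viral factors, the cells without GDF3 included. No label names a culture, infection or chip, so the day-8 cells count as 1 sample, cells are not replicates, and no test or p-value is given anywhere below.

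GDF3 is a secreted ligand of the transforming growth factor beta (TGF-beta) family, close to Nodal. Like Nodal it acts through activin receptors of type I and type II together with a small membrane-bound co-receptor, Cripto, the product of TDGF1, and the signal is carried to the nucleus by SMAD2 and SMAD3. In human pluripotent cells GDF3 is abundant, its gene lies close to NANOG on the short arm of chromosome 12, and fibroblasts hardly use it.

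The RefSeq promoters of GDF3 and of its neighbour NANOG are shown because NANOG was detected on 1 side of the division only. Each is the 250 bases before the annotated start in RefSeq GRCh38.p14, written 5′ to 3′ on the gene's own strand. GDF3 is at chr12:7695776-7696025 on the minus strand and NANOG at chr12:7789152-7789401 on the plus strand. Capitals mark exact matches to short motifs of SOX and KLF proteins, searched on both strands. No motif of MYC was searched. The first motif of SOX proteins was ACAATG, which reads CATTGT from the opposite strand. The second motif of SOX proteins was ACAAAG, which reads CTTTGT from the opposite strand. The motif of KLF proteins was CCACCC, which reads GGGTGG from the opposite strand.
GDF3: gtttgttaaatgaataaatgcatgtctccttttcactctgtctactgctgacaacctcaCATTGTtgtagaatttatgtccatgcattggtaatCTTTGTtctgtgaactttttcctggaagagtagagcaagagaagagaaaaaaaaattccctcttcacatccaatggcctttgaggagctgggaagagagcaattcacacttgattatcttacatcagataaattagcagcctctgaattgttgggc
NANOG: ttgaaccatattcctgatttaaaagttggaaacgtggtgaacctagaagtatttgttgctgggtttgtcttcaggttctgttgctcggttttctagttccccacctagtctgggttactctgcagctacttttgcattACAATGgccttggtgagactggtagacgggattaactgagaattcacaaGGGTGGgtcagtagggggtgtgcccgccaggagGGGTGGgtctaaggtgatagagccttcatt
The GDF3 promoter held the first SOX motif 191 bases before the start and the second SOX motif 156 bases before it. The NANOG promoter held the first SOX motif 112 bases before the start and the KLF motif at 63 and at 30 bases. The octamer ATGCAAAT, a motif of OCT proteins, had no exact match on either strand in these windows. Sequences that differ from it by a base were not searched, so a variant site is not excluded. Of 35116 promoters of the same length, 9.29% held the first SOX motif, 13.7% the second SOX motif, 31.3% the KLF motif and 1.63% the octamer on either strand, and no 2 of the marked matches overlapped. A match is a description of these letters and not a site that was measured.

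GDF3 was not spread evenly over the cells that held it. In 20 of the 27 cells it lay from 1.04 to 7.64, 18 of them at 2.64 or less, and in the other 7 it lay at 38.4, 116, 269, 295, 301, 647 and 729.7. No cell stood between 7.64 and 38.4. In the 20 cells with low values GDF3 ranked near the bottom of what the cell expressed, with a median of 18.9% of the nonzero genes below it, while in the 7 cells with high values the median was 92.3%. The 27 cells are therefore reported together, as the division demands, and also as 7 cells at 10 or more and 20 cells from 1 to under 10.

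Across the series, cells with GDF3 were absent or rare before day 8 and made up most of the positive fraction of day 16. GDF3 reached 1 in 1 of 92 BJ cells, at 9.66, and in 0 of 96 cells at day 2, which allows a share of up to 3.13%. At day 8 it did so in 29.3% of cells (exact Clopper-Pearson 95% interval 20.3 to 39.8). In the TRA-1-60 positive fraction 90 of 95 cells held it, 86 of them at 10 or more, with a median of 713, and in the negative fraction 9 of 85 cells held it, 3 of them at 10 or more. The 7 high cells of day 8 thus overlapped the range of the positive fraction, whose highest cell stood at 15494. No other group had 10 cells on both sides of the threshold, so the division was repeated in none. The groups are separate tables that may have been normalized separately, a limit on all levels compared between groups. The intervals cover counting error only.

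**Figure D1:**
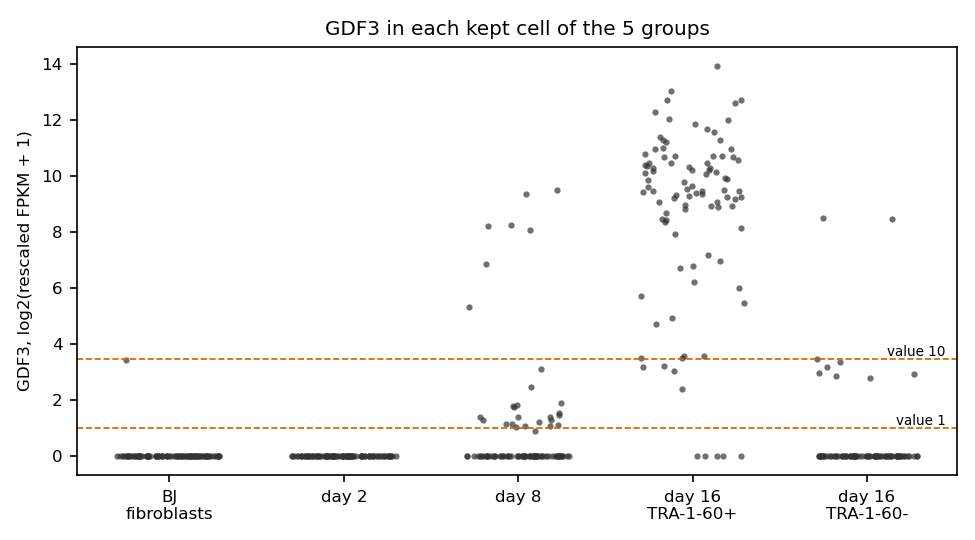
Each point is a kept cell, placed by group on the horizontal axis and by log2(rescaled FPKM of GDF3 + 1) on the vertical axis; dashed lines mark values of 1 and 10. At day 8 the 7 cells from 38.4 to 729.7 stand apart from the 20 cells at 7.64 or less, and most cells of the TRA-1-60 positive fraction lie in or above the range of those 7.

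The 2 sides were alike in complexity. Cells with GDF3 detected 3184 to 8574 genes with a median of 6004, and cells without it 2976 to 8985 with a median of 5909; the 7 high cells had a median of 5938 and the 20 low cells 6016.5. FPKM carry no counts of reads, and the sequencing depth behind a cell is unknown. The deposited total per cell had a median of 865990 with GDF3 and 797562 without. Small RNA genes, with mitochondrial RNA genes, took at most 1.42% of a cell with GDF3, and 37.4% in 1 cell without it. Doublets cannot be called from these values, and no 2 cells held identical values.

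Few pluripotency genes were called higher across all 27 cells, and these were detected in 2 to 6 of them. NANOG, a core transcription factor of pluripotency, was detected in 6 of 27 cells with GDF3 and in 0 of 65 without it, which allows a share of up to 4.62%. LIN28A, which binds RNA and blocks let-7 maturation in pluripotent cells, was detected in 2 of 27 and 0 of 65. At the same time COL1A1 and FN1, which encode the main fibrillar collagen chain and fibronectin of fibroblasts, had means of 16.1 and 18.7 with GDF3 and of 57.8 and 63.2 without. Over 12154 measured genes, those with a mean of 1 or more on either side, 639 were called higher with GDF3 (5.26%) and 1403 lower (11.5%). Called means at least 2-fold apart, as log2 of the ratio of means plus 1, with mean log2(value + 1) over cells differing in the same direction. This ratio understates the change of low genes, and its median over all measured genes was -0.18. With cells of at least 4000 genes, 25 with GDF3 and 63 without, 667 genes were higher (5.47%) and 1363 lower (11.2%). When the highest cell on each side was left out of each gene's mean, 271 genes were higher and 1482 lower. That leaves out a larger part of the 27 cells than of the 65, so the sides were not trimmed alike.

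The NANOG values can be given cell by cell. Among the 7 cells with high GDF3 they were 101, 37.5, 18.8 and 2.95, with no NANOG at 1 or more in the other 3, and among the 20 cells with low GDF3 they were 46.6 and 35.2 in 2 cells. The highest value without GDF3 was 0.517, so these 6 cells lie above every cell of the other side, while the other 21 cells with GDF3 were under 1 like that side. NANOG has near-identical pseudogenes, and the counting could have divided reads between copies. The 35.2 and 46.6 cells both held TDGF1 too, at 49.7 and 239. NANOG and TDGF1 were found together in 4 day-8 cells, and all 4 had GDF3, at 1.10, 1.57, 647 and 729.7. LIN28A stood at 42.03 in 1 high cell and 2.40 in 1 low cell, both of them cells with NANOG, and at no more than 0.723 without GDF3.

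TDGF1, which encodes the co-receptor GDF3 and Nodal share, was less tied to the division. It was detected in 9 of 27 cells with GDF3 (33.3%, interval 16.5 to 53.96) and in 9 of 65 without (13.8%, interval 6.53 to 24.7). Its mean was 31.8 against 19.3, and the cell with most TDGF1, at 693, had no GDF3. The log2 ratio was 0.69, below the threshold. In cells with fewer genes than the median kept cell it was -0.41, in the others 1.91, and 1.35 when the highest cell on each side was left out. TDGF1P3, a processed copy of TDGF1 that can take its reads, averaged 4.46 with GDF3 and 2.00 without.

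More frequent pluripotency genes differed in how many cells held them rather than in level. L1TD1, whose product binds RNA in pluripotent cells, was detected in 22 of 27 cells with GDF3 (81.5%, interval 61.9 to 93.7) and 34 of 65 without (52.3%, interval 39.5 to 64.9), with medians of 56.7 and 3.43 and highest cells of 204 and 390. The upper ranges overlapped and the cells at or near 0 were mostly on the side without GDF3. ESRG, a transcript of pluripotent cells derived from an endogenous retrovirus, was detected in 15 of 27 and 25 of 65, with means of 38.7 and 25.02. SOX2, whose value sums the viral and the cell's own copies, was detected in 25 of 27 and 51 of 65, with means of 69.3 and 51.2 and a log2 ratio of 0.43, which was -0.32 in cells with fewer genes than the median. Over all measured genes the median difference in the share of cells was 0 percentage points.

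Of 46 pluripotency genes in the list, 22 were measured; 4 were higher with GDF3 (NANOG, LIN28A, DNMT3L and ABHD12B) and 1, LCK, was lower, with a median log2 ratio of 0.14. That median was -0.40 when the highest cell on each side was left out, a larger part of the side with GDF3. The shares called, 18.2% higher and 4.55% lower, stand beside 5.26% and 11.5% of all measured genes. Single cells carried several of these calls. DNMT3L, a regulator of DNA methyltransferases in germ and pluripotent cells, averaged 6.26 with GDF3 and 0.481 without its highest cell, which stood at 157. LIN28A averaged 1.66, and 0.109 without its highest cell. KLF4 and MYC, whose values like those of SOX2 sum the viral and the cell's own copies, were not higher with GDF3. KLF4 averaged 5.91 against 12.9 (log2 ratio -1.01, and -0.96 in cells with at least 4000 genes) and MYC 266 against 421 (-0.66). In the 7 cells with GDF3 at 10 or more, against the 64 at 0, both were called lower (-2.32 and -1.45). Of all measured genes 31.8% were lower in that comparison. POU5F1, the gene of OCT4, was listed at 0 in all 92 cells, viral copy included, and no level is read from it.

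The other ligands of the pathway did not accompany GDF3. NODAL reached 1 in 1 cell on each side, at 3.18 with GDF3 and 1.01 without. LEFTY1 and LEFTY2, secreted antagonists that block Nodal and are themselves its targets, were detected in 2 and 1 cells with GDF3 and in 5 and 2 cells without, and no mean passed 0.162. The 2 LEFTY genes are near-identical and share reads. INHBA, the activin A subunit, averaged 6.22 with GDF3 and 7.28 without. LTBP1, which holds latent TGF-beta in the matrix, was lower (1.43 against 7.24, log2 ratio -1.76), as was GDF15, a stress-induced cytokine of the family (15.95 against 40.3, -1.28). The BMP ligand list had 7 of 15 genes measured, 0 higher and 2 lower (BMP6 and GDF15), with a median of -0.91. This count of few genes stands beside 5.26% of all measured genes higher and 11.5% lower. The BMP ligand median by difference of mean log2(value + 1) was -0.03, beside -0.07 over all measured genes.

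Receptors and SMADs were found at low levels on both sides. Of 13 type I and II receptors, 11 were measured, 0 were higher and 1 was lower, with a median of -0.12. The lower share, 9.09%, was near the 11.5% of all measured genes. The lower gene, ACVR2A, an activin type II receptor, averaged 0.529 with GDF3 and 2.18 without. ACVR1B, the activin type I receptor, averaged 1.62 and 1.84, and ACVR2B, the other activin type II receptor, 1.25 and 0.611. SMAD2, SMAD3 and SMAD4 averaged 4.36, 4.92 and 4.04 with GDF3 and 5.202, 3.74 and 3.50 without, none of them called. FOXH1, the nuclear partner of SMAD2 in Nodal signalling, averaged 1.42 and 1.44 and was found in 2 and 7 cells. FURIN, a protease that cleaves TGF-beta family precursors, averaged 4.83 and 5.80.

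Among targets of SMAD signalling, MSX1, a homeobox gene induced by BMPs, averaged 7.22 with GDF3 and 15.8 without and was called lower (log2 ratio -1.03), and CTGF, a matrix protein induced by TGF-beta, averaged 96.9 and 116.5 and was not called. Extracellular inhibitors had 7 of 13 genes measured, 0 higher and 2 lower, beside 5.26% and 11.5% of all measured genes. Of the 2 lower, GREM1, a BMP antagonist, averaged 2.94 against 13.7, and FSTL3, a follistatin-like binder of activin, 2.15 against 10.1.

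Fibroblast genes were mixed over the 27 cells. Of 38 measured members 3 were higher (LUM, POSTN and SERPINF1) and 6 lower (COL1A1, COL6A2, COL6A3, FN1, FAP and GREM1), with a median of -0.23. These shares, 7.89% and 15.8%, are near the 5.26% and 11.5% of all measured genes. COL1A1 was detected in 16 of 27 cells with GDF3, with a median of 2.44 and a highest cell of 208, and in 52 of 65 without, with a median of 16.8 and a highest cell of 919.5. The ranges overlap from 0 upward, and the log2 ratio was -1.78. It was -0.73 in cells with at least the median number of genes and -3.57 in the others. FN1 had medians of 0.943 and 3.94 and highest cells of 182 and 1072 (log2 ratio -1.70). SNAI2, a transcription factor of mesenchymal cells, averaged 2.73 and 16.7 (-2.25). LUM, the small proteoglycan lumican, averaged 104 against 50.8, and POSTN, the matrix protein periostin, 109.6 against 47.4, with medians of 66.7 and 0.846.

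Of 16 measured inflammatory and secreted genes 7 were lower with GDF3 and 0 were higher, beside 11.5% and 5.26% of all measured genes. Their median was -0.99, and -0.24 by difference of mean log2(value + 1), beside -0.07 over all measured genes by that measure. MMP1, a collagenase, averaged 2.70 against 65.3, where 1 cell without GDF3 reached 3615, and IL6 0.507 against 6.37, each detected in at most 10 cells of a side. Contractile genes had 2 of 17 lower (TAGLN and TGFB1I1) and 1 higher (CNN1), with a median of -0.60, shares of 11.8% and 5.88% that are near those of all measured genes; TAGLN, an actin-binding protein, averaged 143 and 359.9. Epithelial genes had 1 of 26 higher and 4 lower, also near the background. KRT18, the keratin of simple epithelia, was in all 92 cells, at means of 2874 and 3339. CDH1 and EPCAM, the epithelial adhesion proteins, were in 3 and 5 cells with GDF3 and in 9 and 9 without. Keratinocyte markers were detected in 6 cells with GDF3 and 23 without, mesendoderm markers in 0 and 1, and endothelial markers in 0 and 2. At least 1 trophoblast marker was in 25 cells with GDF3 and 54 without, with median sums of 11.5 on both sides, and at least 1 neural marker in 25 and 57, with median sums of 18.4 and 27.4. Their part in the differences was not tested.

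Metallothioneins, small proteins that bind zinc and copper, had the highest median of the lists with at least 8 measured members. Of 8 members 4 were higher with GDF3 (MT1F, MT1G, MT1H and MT1M), 1 was lower (MT1A), and the median was 1.15, against -0.18 over all measured genes. Of all measured genes 5.26% were higher and 11.5% lower. MT1G was detected in 9 of 27 cells with GDF3 and 14 of 65 without, with means of 139 and 26.9 and highest cells of 1936 and 424.5; without its highest cell the mean was 69.8. MT1X was detected in 26 of 27 and 57 of 65, with means of 1768 and 1032 and medians of 553.5 and 347.5. The members are near-identical in sequence and the counting could divide their reads, so the list says less than 8 separate genes would.

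No gene of the cell division, basal metabolism and housekeeping lists given here was called between the sides. None of 30 S phase genes and none of 28 G2 and M phase genes was called, with medians of -0.24 and -0.30. None of 28 genes of oxidative phosphorylation was called (median 0.03), none of 24 glycolysis genes (-0.17) and none of 14 housekeeping genes (-0.16). The median over all measured genes was -0.18. By difference of mean log2(value + 1), the G2 and M phase median was -0.57, beside -0.07 over all measured genes. That G2 and M phase median was -1.02 in the 20 cells with low GDF3 and 0.42 in the 7 with high GDF3. The S phase median was -0.15 over the 27 cells, -0.39 in the 20 and 0.74 in the 7. This difference between the classes was not tested.

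Beyond the lists, 46 genes met the size rule for named genes on the higher side and 72 on the lower, of which the first 15 each are named. The rule asked for a mean of at least 10 on the higher side, a log2 ratio at least 1 in size, and shares of cells at least 15 percentage points apart. The higher ones, in order, were POSTN, EXTL3, LINC02001, AKR1C3, C9orf135, PRTFDC1, LOC93622, SAFB, BBS7, METTL18, WDR25, EID3, EPHA4, SNCG and WDR53. EXTL3, a glycosyltransferase of heparan sulfate synthesis, was in 23 of 27 cells with GDF3 and 34 of 65 without, with means of 39.8 and 17.6. AKR1C3, an aldo-keto reductase of steroid metabolism, averaged 217 and 102. SNCG, gamma-synuclein, averaged 58.5 and 24.3. EPHA4, an ephrin receptor, was in 19 of 27 and 25 of 65 cells, at 12.45 and 4.12. These genes mostly did not belong to the pluripotency list, and in each the ranges of the 2 sides overlapped.

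C9orf135 was the exception among them in its day-16 level, at 179 in the TRA-1-60 positive fraction and 0 in the negative one. At day 8 it was in 8 of 27 cells with GDF3 and 5 of 65 without, with means of 77.8 and 5.73. Its log2 ratio of 3.55 was 1.93 in cells with at least 4000 genes, and its mean was 24.4 without its highest cell. EID3, a component linked to the SMC5 and SMC6 complex, had a log2 ratio of 1.63 that was -0.17 in cells with fewer genes than the median.

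The lower genes, in order, were RPP40, GEMIN6, SNORD140, ACYP1, REEP4, CLIC3, TMBIM1, COL1A1, PLAUR, GLT8D2, UAP1, TRMU, CAMK2G, CPSF1 and SLC30A6. RPP40, a subunit of ribonuclease P, was in 10 of 27 cells with GDF3 and 49 of 65 without, with means of 25.6 and 58.5. GEMIN6, part of the complex that assembles spliceosomal ribonucleoproteins, averaged 96.3 and 196. PLAUR, the urokinase receptor, averaged 22.7 and 102, and TMBIM1 5.62 and 25.9. CPSF1, a subunit of the cleavage and polyadenylation factor, averaged 5.60 and 17.9. SNORD140 is a small nucleolar RNA, a class that libraries of polyadenylated RNA catch poorly.

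The 7 cells with GDF3 at 10 or more, set against the 64 cells listed at 0, showed more genes past the threshold and lower fibroblast genes than the 27 cells together, in a comparison that rests on fewer cells. Of 12043 measured genes, 988 were higher (8.2%) and 3833 lower (31.8%), and the median over all genes was -0.39. With at least 4000 genes per cell, 6 cells against 62, 1015 genes were higher (8.44%) and 3784 lower (31.5%). Of 38 measured fibroblast genes 27 were lower and 2 higher (POSTN and PDGFRA), with a median of -1.92. COL1A1 lay from 0 to 1.97 in the 7 cells and from 0 to 919.5 in the 64, with medians of 0.2698 and 17.2. FN1 lay from 0 to 4.02 in the 7 cells against a mean of 64.1 in the 64, and TIMP3, an inhibitor of matrix proteases, from 0.185 to 27.9 with a median of 0.616 against 33.5. LUM, DCN and PDGFRB, defining fibroblast markers, were detected in none of the 7, which allows a share of up to 42.9%. The same low values also occurred among the 64 cells, whose range starts at 0.

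Not every fibroblast gene was low in these 7 cells, and some that were called lower were still detected in them. THY1, the surface protein CD90, averaged 169 in them and 138 in the 64 cells, SPARC, a matrix glycoprotein, 144 and 269.9, and POSTN 141 and 48.1. VIM, vimentin, was detected in all 7, at 6.12 to 1785, and averaged 846 against 2733. S100A4, a calcium-binding protein of motile fibroblasts, lay from 1792 to 17272 and averaged 6306 against 13879. VIM and S100A4 were among the 27 fibroblast genes called lower, and SPARC was not called.

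On the pluripotency side 9 of 22 measured genes were higher in the 7 cells (NANOG, LIN28A, TDGF1, DNMT3L, ESRG, TRIM71, TET1, USP44 and ABHD12B). Another 5 were lower (SALL4, SALL1, FGF2, LCK and EPCAM), and the median was -0.20. These shares, 40.9% higher and 22.7% lower, stand beside 8.2% and 31.8% of all measured genes. The lower share was thus below that of all genes. ESRG was detected in 7 of 7 cells, from 29.9 to 219.8, and in 25 of 64, with means of 86.55 and 25.4. L1TD1 was in 7 of 7 from 34.2 to 143 and in 33 of 64. TET1, an enzyme that oxidizes methylated cytosine, was in 5 of 7 cells with a mean of 5.88 and in 20 of 64 with a mean of 1.23. TRIM71, a partner of LIN28A in pluripotent cells, was in 4 of 7 and 11 of 64. DPPA4, ZFP42 and PRDM14, markers of established pluripotent cells, were in none of the 27 cells with GDF3. The highest sum of the 9 pluripotent markers, 829, belonged to a cell without GDF3, and the highest with it was 418.

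Other groups in the 7 cells are read against the 31.8% of all genes lower and 8.2% higher in this comparison. Inflammatory genes had 11 of 16 lower and 0 higher (median -2.35) and contractile genes 10 of 17 lower and 2 higher (-1.16). Interferon response genes had 11 of 18 lower and 2 higher (-1.63). By difference of mean log2(value + 1) these 3 medians were smaller in size, at -0.35, -0.93 and -0.50, beside -0.17 over all measured genes. The fibroblast median by that measure was -1.28. IL1B, a cytokine that averaged 226 in the 64 cells, was at 0 in all 7, and ZEB1, a mesenchymal repressor, was at 0 in all 7 against a mean of 9.33. Metallothioneins had 6 of 8 higher and 1 lower (median 1.63), with MT1G in 5 of 7 cells at a mean of 427 and in 14 of 64 at 27.4. S phase genes had 1 of 30 higher and 1 lower (median 0.24), and G2 and M phase genes 1 of 28 lower (median -0.02). Markers of keratinocytes, mesendoderm, endothelium and blood were detected in 0 of the 7 cells. At least 1 trophoblast marker was in 7 of 7 (median sum 21.9, CGA and GATA3 in none) and at least 1 neural marker in 7 of 7 (median sum 39.7, SOX1 in none).

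Pathway genes differed by role in the same 7 cells, read against 31.8% of all genes lower and 8.2% higher. Of 11 measured receptors 6 were lower and 0 higher (median -1.43), among them TGFBR2, the TGF-beta type II receptor, at 0.513 against 14.1, and ACVR1B, detected in 0 of 7 and 13 of 64. BMP ligands had 6 of 7 lower (median -1.49), with BMP4 at 2.67 against 22.4. The receptor and BMP ligand medians by difference of mean log2(value + 1) were -0.46 and -0.34, beside -0.17 over all measured genes. Of the SMAD targets, ID1, a target of BMP signalling, averaged 7.03 against 280.1, and TGFBI, a matrix protein induced by TGF-beta, 71.3 against 409.7. SMAD7, the inhibitory SMAD, averaged 0.0733 against 7.73. Of 13 SMADs and nuclear partners 5 were lower and 1 higher, with a median of 0.04. SMAD2 stood at 7.55 against 5.12 and FOXH1, in 2 of 7 cells, at 5.16 against 1.46.

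The same size rule, applied to these 7 cells after the values were seen, was met by 194 genes on the higher and 553 on the lower side. The first on the higher side were MT1G, ESRG, ACTG2 (an actin of smooth muscle) and LIM2 (a membrane protein of the lens), followed by CHEK2, a kinase of the DNA damage checkpoint that was in 7 of 7 cells and 25 of 64 with means of 76.4 and 18.9. GAL, the neuropeptide galanin, was also in 7 of 7 cells and in 29 of 64, and SERPINB9, an inhibitor of granzyme B, in 6 of 7 and 14 of 64. The first on the lower side were TSPO, STMN2 and FAHD1. TSPO, a protein of the outer mitochondrial membrane, averaged 71.8 against 630.4, and STMN2, a tubulin-binding protein, 4.32 against 241. FAHD1, a mitochondrial hydrolase, was at 0 in all 7 cells and detected in 45 of 64. RNU4ATAC, a small nuclear RNA, was named on the higher side with 2 cells of the 7 and 0 of 64.

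The 20 cells with GDF3 from 1 to under 10, an alternative added after the values were seen, differed less from the cells without GDF3 in fibroblast genes than the 7 did, though this difference between the classes was not tested. Against the 65 cells 701 of 12142 genes were higher (5.77%) and 1535 lower (12.6%), with a median of -0.17. Of 21 measured pluripotency genes 1 was higher and 1 lower (median -0.22), and of 38 fibroblast genes 3 were higher and 6 lower (median -0.05). COL1A1 was detected in 15 of the 20 and averaged 21.6, FN1 in 12 with a mean of 24.9965, and LUM in 9 with a mean of 139.9. Inflammatory genes were low here too, with 7 of 16 lower, 1 higher and a median of -1.13. That median was -0.2 by difference of mean log2(value + 1), beside -0.04 over all measured genes.

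**Figure D2:**
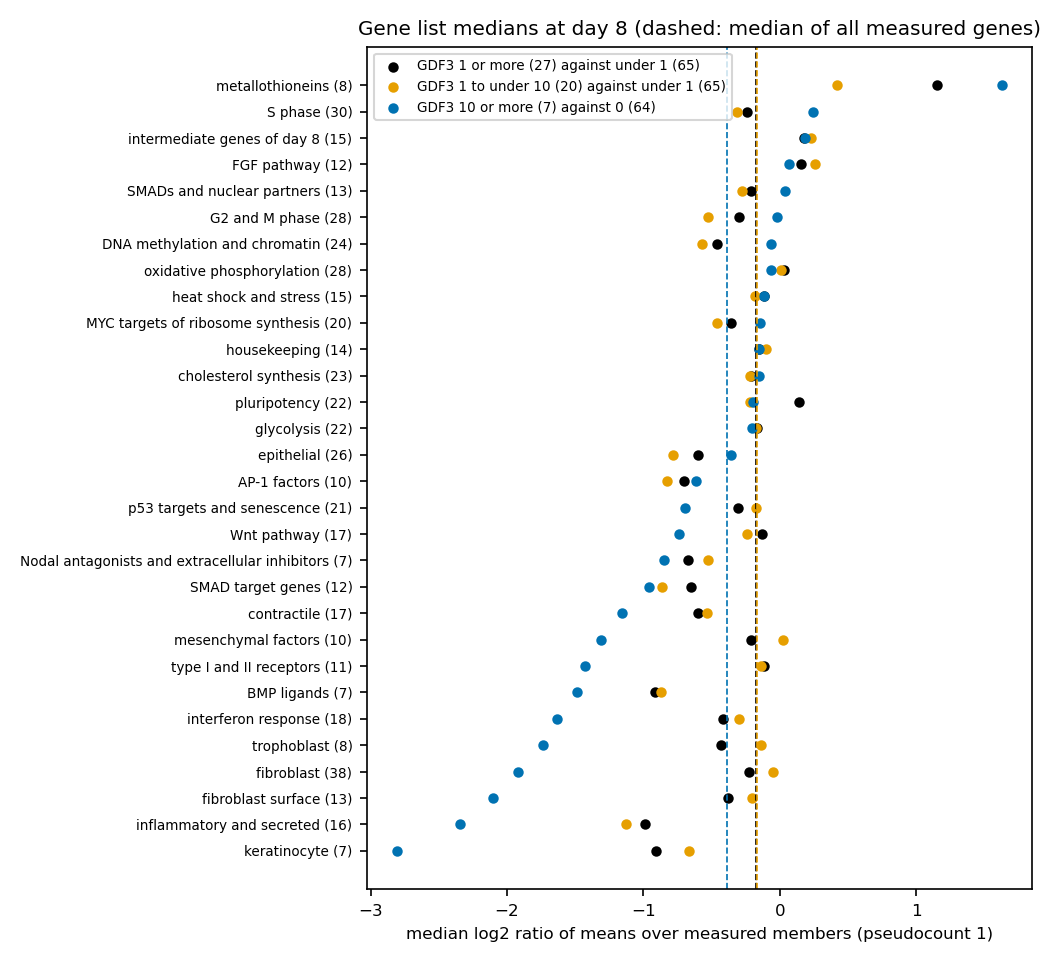
Points are medians of the log2 ratio of means over the measured members of each gene list (number measured in brackets) for 3 comparisons of day-8 cells; dashed lines are the medians over all measured genes. Fibroblast genes lie at -1.92 for the 7 cells with GDF3 at 10 or more and at -0.05 for the 20 cells from 1 to under 10, and metallothioneins are highest in all 3.

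Counted cell by cell, the 7 cells joined a larger number of pluripotency genes to a smaller number of fibroblast genes. They detected 8 to 14 of the 46 pluripotency genes (GDF3 not counted), median 10, and 13 to 23 of the 40 fibroblast genes, median 16. The 20 cells detected 5 to 14 and 15 to 37, with medians of 7 and 27, and the 65 cells without GDF3 detected 3 to 13 and 12 to 32, with medians of 7 and 25. At least 8 pluripotency genes were found in 7 of 7, 7 of 20 and 27 of 65 cells, and more than 23 fibroblast genes in 0 of 7, 12 of 20 and 39 of 65. The combination was not particular to GDF3: at least 8 pluripotency genes with at most 23 fibroblast genes also occurred in 4 of the 20 and in 17 of the 65 cells. These counts of 8 and 23 are the lowest and highest values of the 7 cells, so they were chosen on them.

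**Figure D3:**
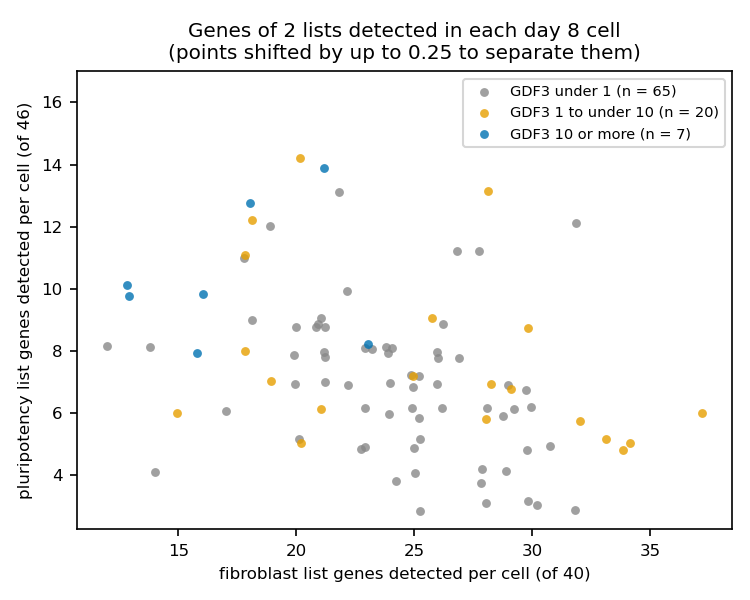
Each point is a day-8 cell, with the number of fibroblast list genes detected on the horizontal axis and of pluripotency list genes on the vertical axis, coloured by GDF3 class. The 7 cells with GDF3 at 10 or more lie at 13 to 23 fibroblast and 8 to 14 pluripotency genes, a region they share with 4 of the 20 and 17 of the 65 cells.

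The fractions of day 16 share no cell with day 8, and their levels are set beside these differences. Between TRA-1-60 positive and negative cells 3479 of 14059 measured genes were higher (24.7%) and 3008 lower (21.4%). Of 480 genes higher with GDF3 at day 8 and measured at day 16, 36.9% were higher in the positive fraction and 21.9% lower, against 19.7% and 22.1% of all 11516 genes measured in both. Of 1188 genes lower with GDF3, 19.1% were higher and 34.7% lower there. For the 7 cells with high GDF3 the shares were 37.5% higher and 12.005% lower of 858 higher genes, and 13.8% higher and 37.6% lower of 3520 lower genes. For the 20 cells with low GDF3 they were 29.7% and 27.3% of 532 higher genes, and 23.6% and 28.8% of 1309 lower genes. These shares are descriptions, since genes are not independent.

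Single genes followed the day-16 difference to different degrees. MT1G averaged 1647 in positive cells and 3.96 in negative ones, and 427 in the 7 cells; SERPINB9 averaged 203 and 1.19, and 24.2 in the 7 cells. COL1A1 averaged 7.75 and 1162, TSPO 11.02 and 695, and STMN2 2.22 and 200.1. Others did not follow it: AKR1C3 averaged 14.9 in positive and 119 in negative cells, although it was higher with GDF3 at day 8, and DNER, a Notch ligand at 40.9 in the 7 cells and 1.51 in the 64, averaged 0.354 and 2.62. NODAL, LEFTY1 and LEFTY2 averaged 509, 493 and 1328 in positive cells, and none passed 0.455 in the 7 cells.

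**Figure D4:**
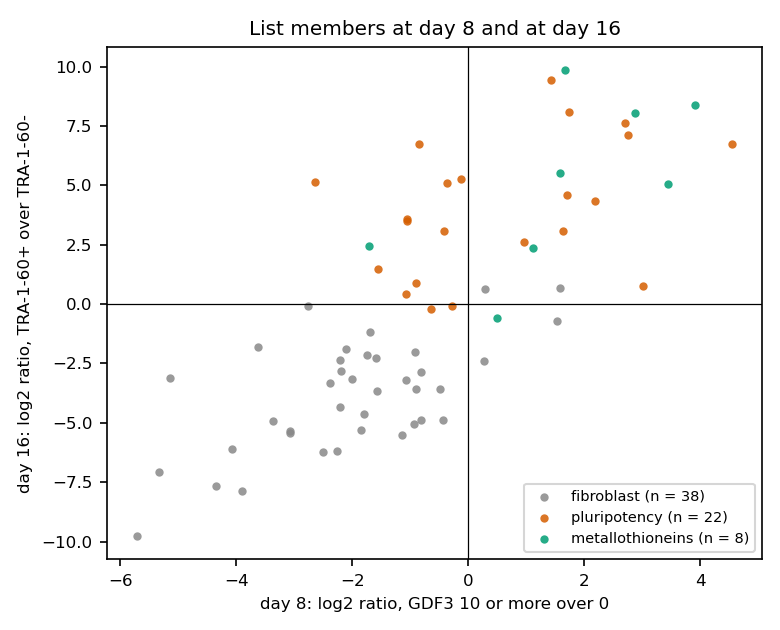
Each point is a measured member of 3 gene lists, placed by its log2 ratio between the 7 day-8 cells with GDF3 at 10 or more and the 64 at 0 (horizontal) and between the TRA-1-60 positive and negative fractions of day 16 (vertical). Of 38 fibroblast genes most lie to the lower left, with a day-8 median of -1.92, and metallothioneins to the upper right, with medians of 1.63 and 5.30; the 22 pluripotency genes lie on both sides of 0 at day 8.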

How the data were processed

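Single cells were captured on Fluidigm C1 chips and libraries made with Nextera XT, per the labels' protocols. The authors deposited FPKM, 1 table per group with 27021 genes; STAR, Cuffnorm and the build hg19 are named in the submitters' processing notes, with versions not given in the sources used here. A joint normalization of the tables and the depth per cell are not stated either. Cells were assigned to groups by their labels.

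From the FPKM each cell was rescaled to a total of 1000000 and cells with at least 2000 genes at 1 or more were kept. Genes were compared by log2((mean + 1)/(mean + 1)), a pseudocount of 1, measured at a mean of 1 or more on either side and called at a log2 ratio whose size was at least 1, with the same sign of the difference of mean log2(value + 1). Shares of cells carry exact Clopper-Pearson 95% intervals, and a share of 0 the limit that 3 cells allow. No test was made, since the day-8 cells are 1 culture as far as the labels say. Named genes were up to 15 in each direction by difference of mean log2(value + 1), with a mean of at least 10, a log2 ratio of 1 or more and shares 15 percentage points apart, also among cells of at least 4000 genes; members of 42 gene lists and some pathway genes were named besides. The cells, lists and rules were chosen with earlier results of these data known. The calculation was tested on simulated data. It used Python 3.11.15, numpy 2.4.6, pandas 2.3.3 and scipy 1.17.1. Other settings tried numbered 13, and 2 more were added after seeing the data. Some genes are not reported here.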

Additional observations from a re-analysis of the deposited data

How the results depend on the processing

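The numbers of genes called higher and lower with GDF3 were 639 and 1403. They were 988 and 3833 for GDF3 at 10 or more against 0, and 1015 and 3784 for the same with at least 4000 genes per cell, an alternative added after seeing the data. They were 1130 and 3195 in the 11 and 34 cells with fewer genes than the median, and 61 and 106 with a pseudocount of 10. With a pseudocount of 0.1 the higher genes were 986. With the highest cell on each side left out of each gene's mean they were 271, so many higher calls did not hold under that setting. It trims a larger part of the 27 cells than of the 65, and measured genes fell from 12154 to 10721. The number of fibroblast genes per cell differed by -0.77 between the sides, by -7.09 for GDF3 at 10 or more against 0 and by -7.26 for the same with at least 4000 genes; for GDF3 from 1 to under 10, also added after seeing the data, the difference was 1.43, within 1 SD over cells. The number of pluripotency genes per cell differed by 1.47, and by 0.73 to 3.5 under the alternatives.

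The share of measured genes detected in more cells on the side with GDF3 was 48.01%. It was 51.99% in cells of at least 4000 genes, 42.1% without the 5% of cells with most genes, 36.6% and 49.9% in cells below and from the median number of genes, 42.9% for GDF3 at 10 or more against 0, 46.8% for the same with at least 4000 genes, 51.2% for GDF3 from 1 to under 10, 49.3% as deposited, 49.01% under housekeeping scaling, 44.2% with detection at 5, 46.8% without the highest cell and 28.9% with no filter on the mean. EID3 turned to -0.17 in cells with fewer genes than the median, and the adipocyte list (2 measured genes, median -1.64) to 0.69 in the other cells; the cause was not tested. No median of all genes moved by 0.1 under another scaling, and 7 list medians, each under 0.6 in size, turned sign under at least 1 scaling. No paired analysis was possible because the numbers of the cells only name them and no test was made. Depth is unknown, so a gene at 0 in a cell may have been missed.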

Other observations

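Genes beside GDF3 on the short arm of chromosome 12 were looked at as a group. Of 11 neighbours listed, 4 were measured at day 8, 1 (NANOG) was higher with GDF3 and 0 were lower. Of all measured genes 5.26% were higher and 11.5% lower. SLC2A3, a glucose transporter, averaged 14.5 with GDF3 and 22.2 without, and NECAP1, an endocytosis protein, 12.3 and 17.3. DPPA3, a germ cell and pluripotency gene, was at 0 in all 92 cells and averaged 12.98 in the TRA-1-60 positive fraction of day 16.

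LMNB1, a nuclear lamina gene that falls in senescent cells, averaged 3.91 with GDF3 and 1.17 without, and 10.9 in the 7 cells with GDF3 at 10 or more, 5 of which held it. CDKN1A, the p53 target that stops the cell cycle, averaged 20.15 and 37.01, and 2.32 in the 7 cells, 1 of which held it. Both genes belong to the list of p53 targets and senescence. In the 7 cells that list had 1 of 21 measured genes higher (LMNB1) and 7 lower. These shares, 4.76% and 33.3%, are near the 8.2% and 31.8% of all measured genes. With at least 4000 genes per cell, 6 cells against 62, 1 of the 21 was higher and 11 were lower. That lower share, 52.4%, was above the 31.5% of all measured genes in that comparison. UPP1, a uridine phosphorylase, was in all 7 cells at 155 to 1701 with a mean of 774, against 288.5 in the 64 cells at 0. OCLN, a tight junction protein, was in 4 of the 7 and 14 of the 64 cells. The epithelial list that holds it had 2 of 26 measured genes higher in the 7 cells (OCLN and SPINT1) and 8 lower. These shares, 7.69% and 30.8%, are near the 8.2% and 31.8% of all measured genes. LMNB1, CDKN1A, UPP1 and OCLN come from the lists and were picked after their values were seen.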
